A study of Mus musculus with 12 samples.

Results

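The 9 transcripts examined here belong to hepatic methionine and one-carbon metabolism and were measured in mouse liver at 3 ages: Mat1a, Gnmt and Ahcy of the methionine cycle, Bhmt and Bhmt2 of homocysteine remethylation, Cbs and Cth of transsulfuration, Shmt1 of the folate cycle, and Nnmt, which spends methyl groups on nicotinamide. They were chosen by name from the known pathway, with earlier results of these data known. All 9 had a row among the 53465 genes of the count table, of which 28449 had at least 1 count in any liver. Livers came from C57BL/6N mice, which were young (age 3 months), middle-aged (age 12 months) or aged (age 18 months). The methods describe male mice. Each age had 4 livers, each from 1 animal, and no animal carried a transgene or received a treatment according to the labels. RNA-seq of whole liver tissue measured the steady-state level of each transcript, and the comparisons ask how that level differed between ages. In such bulk tissue, fewer cells of a type and less RNA per cell cannot be told apart.

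The methionine cycle turns methionine into S-adenosylmethionine, the methyl donor for most methyltransferases. Transfer of the methyl group leaves S-adenosylhomocysteine, which is split to homocysteine, and homocysteine is either remethylated to methionine or passed through cystathionine to cysteine and on to glutathione. The adult liver is the main site of this metabolism and expresses several of its enzymes at high levels that are rare in other tissues.

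Between 8124312 and 10527159 counts were assigned to genes in each liver, so that the floor of 3 counts lay between 0.285 and 0.369 CPM (counts scaled to a common library total). Every one of the 9 genes was far above that floor, with the lowest single count, 1067, found for Nnmt in aged replicate 3. Together they took 1.06 to 1.46% of all gene counts. Mitochondrially encoded genes took 19.2% of the counts in young replicate 2 and 5.48 to 10.7% in the other livers, and synthetic spike-in RNA took 10.6% of all counts in young replicate 2 and at least 1.59% elsewhere. The spike-ins split the livers into replicates 1 and 2 and replicates 3 and 4 of every age: over 31 spike-ins, correlations of log counts were at least 0.997 within these sets and at most 0.925 between them. The 7 hepatocyte markers present in the table summed to 744510 to 823503 normalised counts at 3 months, 780924 to 872799 at 12 months and 780833 to 1015950 at 18 months, and DESeq2 called 0 of them between any pair of ages.

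Levels of different genes were compared as normalised counts per kb of exon. Gnmt was the most abundant, with a mean of 23869 per kb over the 12 livers and a range from 17583 to 28165, which placed it at rank 25 among all genes. Mat1a followed with 7542 per kb, and Bhmt with 5975 per kb. The order of this pair differed between ages: Mat1a was below Bhmt in all 4 young livers, by as little as 6009 against 6017 per kb in replicate 3, and above it in all 8 middle-aged and aged livers. This difference in order was not tested. Gnmt exceeded Mat1a, and Bhmt exceeded Ahcy, in 12 of 12. Ahcy had a mean of 4407 per kb, and its whole range was 3955 to 4711. Cth averaged 2474 per kb. Nnmt averaged 1284 per kb and spread most widely, from 591.7 to 2452, so that its range covered the levels of Bhmt2 (mean 989.9) and Cbs (mean 872.1). Nnmt exceeded Bhmt2 in 10 of 12 livers, and Bhmt2 exceeded Cbs in 10 of 12. Shmt1 was the lowest, with a mean of 479.7 per kb and rank 859 of all genes, and stood below Cbs in 12 of 12 livers.

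**Figure D1:**
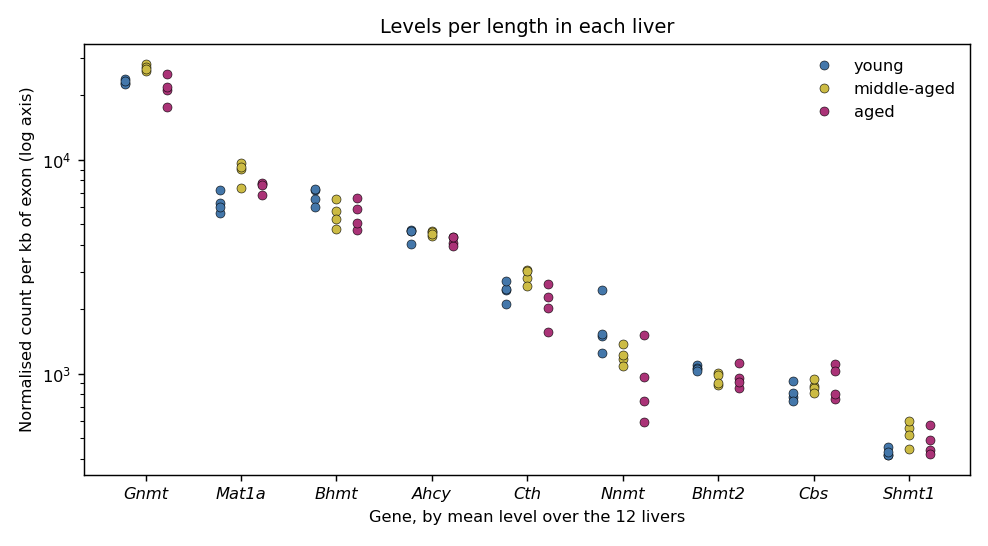
Normalised counts per kb of exon (log axis) for the 9 genes, ordered by their mean over the 12 livers; each point is 1 liver, coloured by age. Gnmt lies between 17583 and 28165 per kb and stands above every other gene, and Nnmt has the widest vertical spread.

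Mat1a encodes the liver form of methionine adenosyltransferase, which makes S-adenosylmethionine (Ensembl ENSMUSG00000037798, chromosome 14, 41105035 to 41124412, plus strand, GRCm38). Its normalised counts in the 4 young livers were 21855, 19635, 20840 and 25008. In the middle-aged livers they were 31457, 33495, 25680 and 31942. Every middle-aged liver was above every young one. The aged livers had 23654, 26851, 26958 and 26500, which overlapped the middle-aged ones, and 3 of the 4 were above all young livers. Mean ± SD over 4 livers was 21834 ± 2302 at 3 months, 30644 ± 3421 at 12 months and 25991 ± 1570 at 18 months. Mat1a thus rose by 40.3% from young to middle-aged liver, a log2 fold change of 0.49 with a standard error of 0.10 (DESeq2 Wald test over all genes, Benjamini-Hochberg adjusted p = 0.000221). Aged against young differed by 0.25 ± 0.10 (SE) on the log2 scale and did not pass (DESeq2 adjusted p = 0.154), and aged against middle-aged by -0.24 (DESeq2 adjusted p = 0.329). The rise at 12 months was also called by edgeR on filtered genes (adjusted p = 0.0414) and when any 1 of the 12 livers was left out, with log2 fold changes from 0.44 to 0.57.

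Gnmt encodes glycine N-methyltransferase, which takes up excess methyl groups by methylating glycine (ENSMUSG00000002769, chromosome 17, 46725664 to 46729168, minus strand). The young livers lay close together at 27486, 27212, 28667 and 28200 normalised counts. The middle-aged livers, at 33967, 32614, 31421 and 32185, were all higher than the young ones. The aged livers had 30428, 25595, 21205 and 26454, all of them below the middle-aged range, while aged replicate 1 stood above all young livers and the other 3 below. The coefficient of variation was 2.38% at 3 months, 3.28% at 12 months and 14.6% at 18 months. From middle-aged to aged liver Gnmt fell by 20.4%, or -0.33 ± 0.09 (SE) on the log2 scale (DESeq2 adjusted p = 0.0478). The call was at the edge of the threshold: leaving out any 1 liver other than aged replicate 1 gave DESeq2 adjusted p-values from 0.0599 to 0.259 with log2 fold changes from -0.35 to -0.24, and without aged replicate 1 the adjusted p was 5.13e-05. Middle-aged against young differed by 0.22 on the log2 scale (DESeq2 adjusted p = 0.134), which was not called although the livers did not overlap. Aged against young gave -0.11 (95% interval -0.29 to 0.08).

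Ahcy encodes adenosylhomocysteinase, which removes the S-adenosylhomocysteine left by methyl transfer (ENSMUSG00000027597, chromosome 2, 155059310 to 155074497, minus strand). Young livers had 13051, 11280, 13215 and 13022 normalised counts, and middle-aged livers 13063, 12857, 12305 and 12591. The aged livers, at 12243, 11433, 11094 and 12191, all lay just below the middle-aged range but overlapped the young one. The largest of the 3 Ahcy fold changes was smaller in size than that of any other of the 9 genes. They were 0.01 on the log2 scale for middle-aged against young (95% interval -0.12 to 0.13), -0.11 for aged against young (-0.23 to 0.02) and -0.11 for aged against middle-aged (-0.24 to 0.01). None of them was called by DESeq2, where the lowest adjusted p was 0.441. For aged against middle-aged alone, Bhmt (-0.006), Bhmt2 (0.025) and Cbs (0.093) differed less than Ahcy.

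Gnmt and Ahcy, which act one after the other, were also the pair whose covariation between livers of the same age passed its test, described further on, and the 250 bases before their start sites are printed for that reason. They come from RefSeq (GRCm38.p6), which gave promoters for 6 of the 9 genes; both genes lie on the minus strand, and the sequences read 5′ to 3′ along it, from chr17:46729166-46729415 for Gnmt and chr2:155074498-155074747 for Ahcy. Capitals mark matches, on either strand, to the CCAAT box (CCAAT, or ATTGG on the other strand) and the GC box (GGGCGG, or CCGCCC).
Gnmt: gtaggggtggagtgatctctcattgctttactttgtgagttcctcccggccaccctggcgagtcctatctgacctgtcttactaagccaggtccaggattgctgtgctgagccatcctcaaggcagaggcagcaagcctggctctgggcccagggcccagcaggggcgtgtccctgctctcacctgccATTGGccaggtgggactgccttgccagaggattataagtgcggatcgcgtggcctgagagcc
Ahcy: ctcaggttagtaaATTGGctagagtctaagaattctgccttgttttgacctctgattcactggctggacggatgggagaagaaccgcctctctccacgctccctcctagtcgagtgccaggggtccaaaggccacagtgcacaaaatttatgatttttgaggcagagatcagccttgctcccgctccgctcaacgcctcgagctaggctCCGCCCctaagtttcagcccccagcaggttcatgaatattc
The Gnmt window held a CCAAT box that starts at -62 from the start site and no GC box, while the Ahcy window held a CCAAT box at -237 and a GC box at -41. These short motifs are common: 33.8% of the 32851 RefSeq promoter windows of this length held CCAAT, 32.7% held GGGCGG, 12.4% held the TATA box TATAAA and 6.02% the E-box CACGTG. Neither window held TATAAA or CACGTG, and a match is a description of letters only. Nor were the matches particular to this pair. Among the 6 genes, the windows of Bhmt, Cbs and Shmt1 also held a CCAAT box, and those of Bhmt2, Cbs and Shmt1 a GC box.

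**Figure D2:**
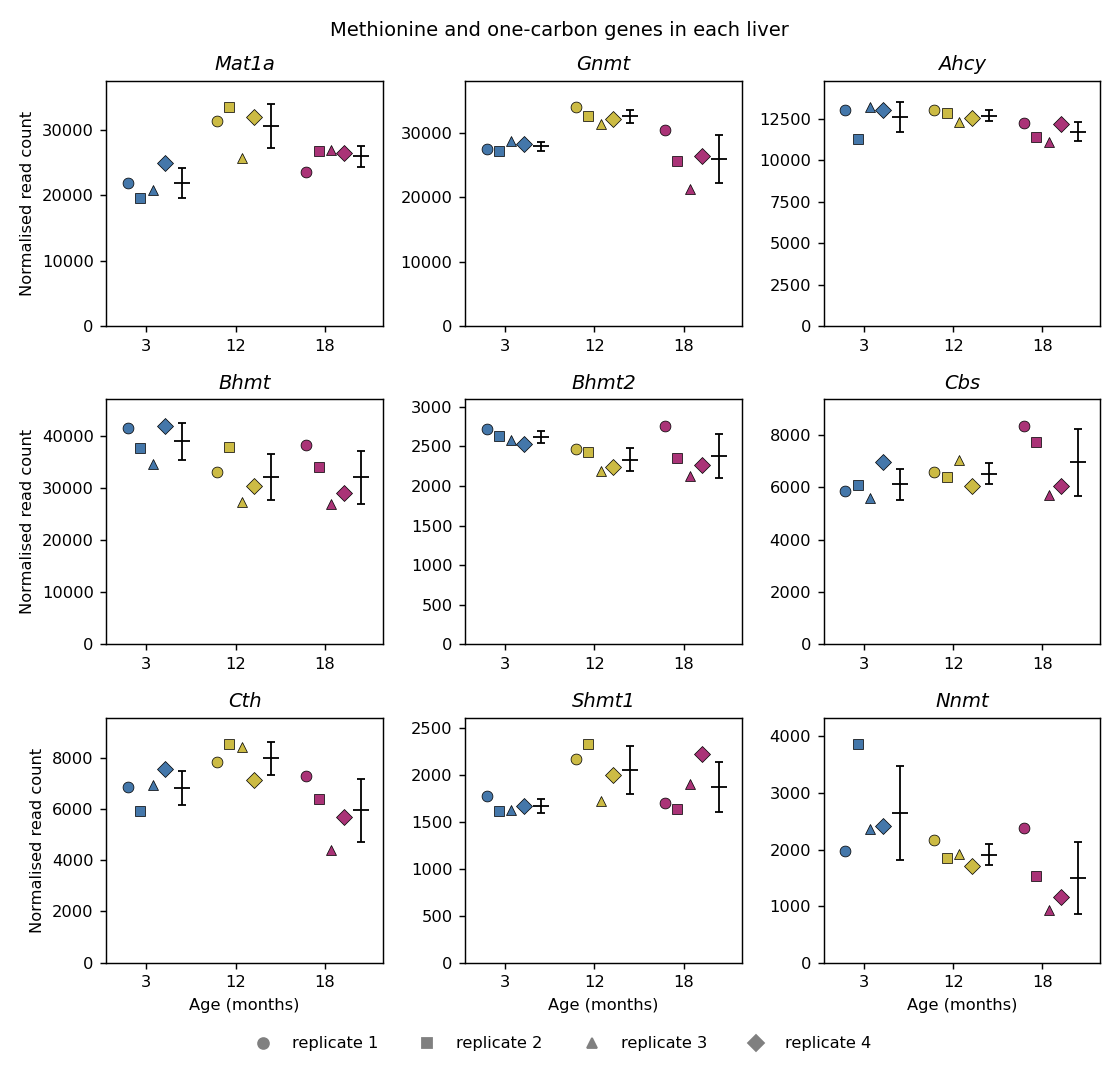
Normalised read counts of the 9 genes at 3, 12 and 18 months; each marker is 1 liver, its shape gives the replicate number, and bars show mean ± SD of 4 livers on axes that start at 0. Mat1a and Gnmt in the middle-aged livers stand above all young livers, and Nnmt in the aged livers reaches down to 932.5.

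Bhmt and Bhmt2 encode betaine-homocysteine methyltransferases that remake methionine, Bhmt with betaine as its methyl donor and Bhmt2 with S-methylmethionine. They lie next to each other on the minus strand of chromosome 13 (Bhmt, ENSMUSG00000074768, 93616675 to 93637961; Bhmt2, ENSMUSG00000042118, 93655720 to 93674302), 17758 bases apart, and as similar copies may share reads. Young livers had 41552, 37670, 34648 and 41993 normalised counts of Bhmt. Middle-aged livers had 33116, 37849, 27302 and 30487, and aged livers 38240, 34028, 26889 and 29091. The means, 38966 ± 3473 at 3 months, 32188 ± 4460 at 12 months and 32062 ± 5087 at 18 months (SD, n = 4), were lower at both later ages, but the livers overlapped. DESeq2 gave log2 fold changes of -0.28 ± 0.13 (SE) for middle-aged against young (adjusted p = 0.183) and -0.28 ± 0.13 for aged against young (adjusted p = 0.235), neither of them called.

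Bhmt2 was less abundant than Bhmt and followed a similar order of means, 2616 ± 77.7 at 3 months, 2334 ± 141.2 at 12 months and 2376 ± 274.9 at 18 months (SD, n = 4). All 4 middle-aged livers, between 2189 and 2473, were below all young livers, between 2535 and 2716. Aged replicate 1, at 2762, was above every young liver, and the other aged livers were at 2358, 2122 and 2262. No Bhmt2 difference was called, with log2 fold changes of -0.16 for middle-aged against young (DESeq2 adjusted p = 0.249) and -0.14 for aged against young (DESeq2 adjusted p = 0.459). Without aged replicate 1, the highest aged liver for both genes, DESeq2 called both Bhmt (log2 fold change -0.38, adjusted p = 0.029) and Bhmt2 (-0.22, adjusted p = 0.0218) as lower in aged than in young liver. Leaving out any other 1 liver called neither, with DESeq2 adjusted p from 0.224 to 0.582 for Bhmt and from 0.489 to 0.795 for Bhmt2.

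Cbs encodes cystathionine beta-synthase, which commits homocysteine to transsulfuration (ENSMUSG00000024039, chromosome 17, 31608894 to 31637238, minus strand). Its young livers had 5848, 6099, 5570 and 6946 normalised counts, its middle-aged livers 6577, 6395, 7040 and 6058, and its aged livers 8343, 7717, 5711 and 6031. The first 2 aged livers were above all others and the last 2 were within the young range. The differences were not called: the log2 fold change was 0.18 for aged against young (95% interval -0.06 to 0.43, DESeq2 adjusted p = 0.513) and 0.09 for middle-aged against young (DESeq2 adjusted p = 0.733).

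Cth encodes cystathionine gamma-lyase, which releases cysteine from cystathionine (ENSMUSG00000028179, chromosome 3, 157894248 to 157925077, minus strand). Young livers had 6852, 5921, 6918 and 7538 normalised counts and middle-aged livers 7825, 8521, 8420 and 7133. The aged livers had 7288, 6396, 4387 and 5675, and 3 of these were below all middle-aged livers. Cth had the largest fitted difference of the 9 genes between aged and middle-aged liver, -0.43 ± 0.14 (SE) on the log2 scale, which missed the threshold (DESeq2 adjusted p = 0.113). Without aged replicate 1 it was -0.54 and called (DESeq2 adjusted p = 0.00466). Leaving out any other 1 liver gave DESeq2 adjusted p from 0.0905 to 0.39. Against young livers the log2 fold change was 0.23 at 12 months (DESeq2 adjusted p = 0.335) and -0.20 at 18 months (DESeq2 adjusted p = 0.535).

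Shmt1 encodes the cytosolic serine hydroxymethyltransferase, which moves a one-carbon unit from serine to folate (ENSMUSG00000020534, chromosome 11, 60788104 to 60811718, minus strand). It had 1772, 1614, 1622 and 1671 normalised counts in young livers. The middle-aged livers, at 2163, 2326, 1722 and 1999, lay above the young range except replicate 3, and the aged livers had 1703, 1632, 1906 and 2223. The log2 fold change was 0.30 ± 0.12 (SE) for middle-aged against young, which was not called over all genes (DESeq2 adjusted p = 0.0975), and 0.16 for aged against young (DESeq2 adjusted p = 0.553). Smcr8, on the opposite strand, overlaps Shmt1 and had 165 to 296 counts per liver; how reads in the overlap were assigned is not given in the sources used here.

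Nnmt encodes nicotinamide N-methyltransferase, which methylates nicotinamide with S-adenosylmethionine (ENSMUSG00000032271, chromosome 9, 48591877 to 48605153, minus strand). The young livers had 1970, 3864, 2369 and 2415 normalised counts, and the middle-aged livers 2167, 1849, 1928 and 1710. The aged livers had 2386, 1528, 932.5 and 1170. In the aged group 3 of the 4 livers were below every young liver, whereas aged replicate 1 lay within the young range. Nnmt fell from young to aged liver, to 0.567 of the young level in aged liver, or -0.82 ± 0.25 (SE) on the log2 scale (95% interval -1.32 to -0.32; DESeq2 adjusted p = 0.0389). This was the largest change of the 9 genes in any comparison. Middle-aged livers were in between, at -0.47 against young on the log2 scale (DESeq2 adjusted p = 0.261). The coefficient of variation of Nnmt was 31.3% in young and 42.4% in aged livers, the largest of the 9 genes at both ages. In middle-aged livers Nnmt was at 1914 ± 191.9 (SD, n = 4), and its coefficient of variation there was below those of Bhmt (13.9%), Shmt1 (12.6%) and Mat1a (11.2%). edgeR on filtered genes did not call it (log2 fold change -0.82, adjusted p = 0.124), and the DESeq2 call was lost, with adjusted p from 0.051 to 0.269, when any one of young replicates 2, 3 or 4, middle-aged replicates 2 or 3, or aged replicates 2, 3 or 4 was left out; the log2 fold change then lay between -0.87 and -0.58. Without aged replicate 1 it was -1.13 (DESeq2 adjusted p = 1.53e-05).

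The liver with most Nnmt, young replicate 2, was also the one with most mitochondrial and spike-in counts. Red blood cell markers differed in the same comparison: the summed level of 4 markers was 18579 to 67290 normalised counts in young and 7970 to 17379 in aged livers, which did not overlap. DESeq2 called 2 of the 4 lower, beside 3.58% of all genes tested. The sums of the middle-aged livers, at 10548 to 40153, overlapped both other ages, and none of the 4 was called in a comparison with them. In each of 3 lists (8 of Kupffer cells and macrophages, 8 of stellate cells and fibroblasts, 6 of cholangiocytes) 1 marker was called higher in aged than in young liver, and none of 8 sinusoidal endothelial or 7 lymphocyte markers was called. No marker in these lists was at 0 in every liver. The summed levels of young and aged livers overlapped in these 3 lists (2756 to 4717 against 2896 to 4655 for Kupffer cells and macrophages, 1993 to 4129 against 2746 to 4287 for stellate cells and fibroblasts, 280.2 to 351.5 against 223.5 to 408.1 for cholangiocytes). The part of these markers in the Nnmt result was not tested.

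Counted over the comparisons, DESeq2 called 1 of the 9 genes between aged and young liver (Nnmt, lower), beside 3.58% of all genes tested. It called 1 of 9 between middle-aged and young liver (Mat1a, higher), beside 6.41% of all genes, and 1 of 9 between aged and middle-aged liver (Gnmt, lower), beside 1.14%. Across the 3 ages together, the likelihood ratio test called 2 of 9, Mat1a (DESeq2 adjusted p = 0.000638) and Gnmt (DESeq2 adjusted p = 0.0301), beside 6.96% of all genes. Under the alternative fits listed below, Mat1a was called across the 3 ages in 20 of 22 and Gnmt in 7 of 22. The median log2 fold change of the 9 genes was -0.11 at 18 against 3 months, 0.09 at 12 against 3 months and -0.14 at 18 against 12 months, beside medians over all genes tested within 0.01 of 0. Of the 9 fold changes, 6 were negative at 18 against 3 months, 6 were positive at 12 against 3 months and 7 were negative at 18 against 12 months. These comparisons share libraries and are not independent of each other. Livers did not overlap for 0 of 9 genes between aged and young (7.53% of all genes tested), for 3 of 9 between middle-aged and young (Mat1a, Gnmt and Bhmt2, beside 16.0% of all genes) and for 2 of 9 between aged and middle-aged (Gnmt and Ahcy, beside 6.55%).

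edgeR's quasi-likelihood test on genes with at least 10 counts in 4 livers, an alternative chosen after the data were seen, called fewer. Between aged and young liver it called 0 of 9 genes, with 2 at an unadjusted p under 0.05 (1.40% of all genes called). Between middle-aged and young liver it called Mat1a alone (2.31% of all genes). Between aged and middle-aged liver it called 0 of 9, with 2 at an unadjusted p under 0.05 (0.107% of all genes), and across the 3 ages 0 of 9, with 4 at an unadjusted p under 0.05 (1.89%).

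**Figure D3:**
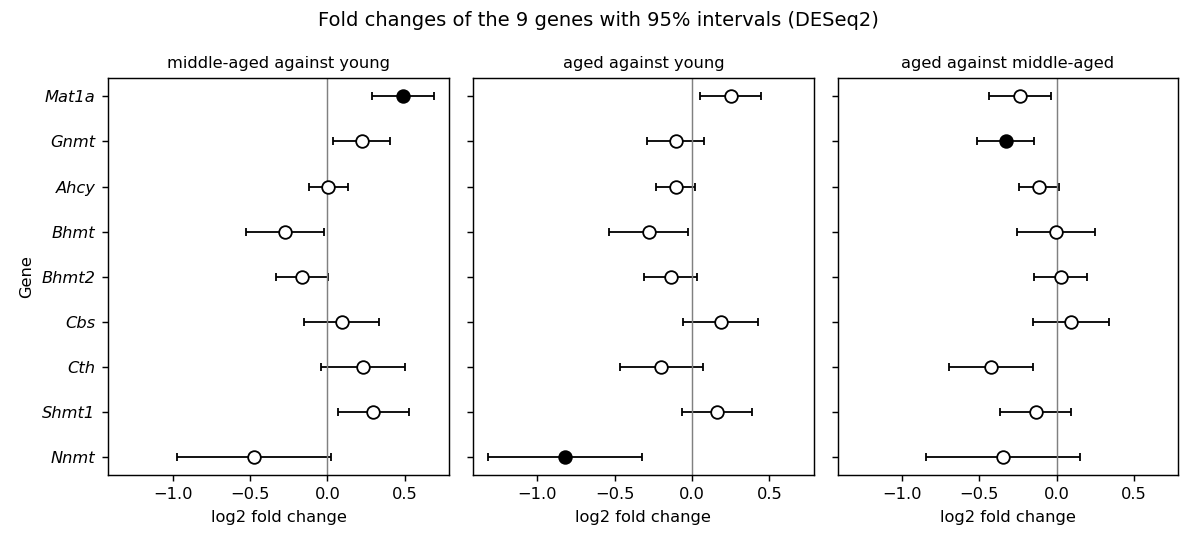
DESeq2 log2 fold changes of the 9 genes with 95% intervals in the 3 pairwise comparisons of 4 against 4 livers; filled points have an adjusted p under 0.05. One point is filled in each panel, Mat1a at 0.49, Nnmt at -0.82 and Gnmt at -0.33.

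Because the spike-ins split the livers, each comparison was repeated within replicates 1 and 2 and within replicates 3 and 4, 2 livers against 2. In replicates 1 and 2, Mat1a alone was called between middle-aged and young liver (log2 fold change 0.65, DESeq2 adjusted p = 0.00618, beside 2.18% of all genes), 0 of 9 between aged and young (2 at an unadjusted p under 0.05, beside 1.24% of all genes called) and 0 of 9 between aged and middle-aged (3 at an unadjusted p under 0.05, beside 0.307%). In replicates 3 and 4, 3 genes were lower in aged than in young liver: Nnmt (-1.19), Cth (-0.53) and Bhmt (-0.46), beside 4.22% of all genes. There Gnmt (-0.41), Cth (-0.62) and Nnmt (-0.79) were lower in aged than in middle-aged liver, beside 2.47% of all genes, and Bhmt alone (-0.42) was lower in middle-aged than in young liver, beside 3.64%; Mat1a was at 0.32 and not called (DESeq2 adjusted p = 0.17). Gnmt, Cth, Cbs and Shmt1 had opposite signs in these sets for aged against young, and Nnmt, at -0.57 and -1.19, had the same sign in both. The difference between the sets was itself tested, after the within-set values were seen, with an interaction term in DESeq2. For aged against young it called 0 of the 9 genes, beside 0.732% of all genes. Cth (log2 difference -0.62, adjusted p = 0.228) and Cbs (-0.52, adjusted p = 0.272) were the 2 genes with an unadjusted p under 0.05. For aged against middle-aged these were Shmt1 (0.58, interaction adjusted p = 0.134), Cbs (-0.47, adjusted p = 0.46) and Nnmt (-0.75, adjusted p = 0.783). In that comparison Nnmt was at -0.04 in replicates 1 and 2. For middle-aged against young the lowest unadjusted interaction p was 0.114 (Mat1a).

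Ratios of 3 gene pairs within the same liver were compared, since a ratio does not depend on the scaling between libraries. The geometric mean of Bhmt counts over Bhmt2 counts was 14.9 at 3 months, 13.7 at 12 months and 13.4 at 18 months, and no comparison had an exact permutation p under 0.143. Mat1a counts over those of Mat2a, which encodes the methionine adenosyltransferase of most other tissues, gave 56.3, 75.4 and 65.6 at the same ages. Middle-aged against young did not pass (two-sided exact permutation p = 0.0571, adjusted p = 0.171). Gnmt over Nnmt, enzymes that compete for S-adenosylmethionine, gave 10.9, 17.1 and 18.2. On the log2 scale this ratio was between 2.82 and 3.80 in young and between 3.97 and 4.23 in middle-aged livers, which did not overlap (difference 0.65, two-sided exact permutation p = 0.0286, the smallest possible with 4 against 4). After Benjamini-Hochberg adjustment over the 9 comparisons of ratios it did not pass (exact permutation test, adjusted p = 0.171). Aged against young differed by 0.75 in this ratio, with livers that overlapped (two-sided exact permutation p = 0.0571, adjusted p = 0.171).

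To see which genes varied together irrespective of age, the age mean of log2 normalised counts was removed and the deviations were correlated over the 12 livers for all 36 pairs. Pearson r was above 0 for 25 pairs and at least 0.7 for 6. The pair of Gnmt and Ahcy had r = 0.59 and Spearman rho = 0.78 and passed the adjustment over 36 pairs (permutation within ages over 13824 assignments, exact p = 0.000145, adjusted p = 0.00522; for rho, exact p = 0.000796, adjusted p = 0.0287). Without the 2 livers farthest from the median r was 0.69. With the mean of each age and spike-in set removed it was 0.66, from sets of 2 livers whose deviations mirror each other. These r values were not tested, and the permutation did not keep livers within spike-in sets. The neighbours Bhmt and Bhmt2 had r = 0.82 and rho = 0.78 (permutation within ages, exact p = 0.00593 and adjusted p = 0.107; for rho, exact p = 0.0149, adjusted p = 0.268), and r was 0.70 without the 2 farthest livers and 0.43 within age and set. The transsulfuration genes Cbs and Cth had r = 0.81 and rho = 0.77 (permutation within ages, exact p = 0.0166 and adjusted p = 0.199; for rho, exact p = 0.0461, adjusted p = 0.338), with r = 0.58 without the 2 farthest livers and 0.54 within age and set. Gnmt had r = 0.82 with Bhmt2 and 0.81 with Cth, and neither passed the adjustment (permutation within ages, exact p = 0.0558 and 0.0543, adjusted p = 0.252 for both). Without the 2 farthest livers these r were 0.29 and 0.12, so that the relations rested on those livers, whereas within age and set they were 0.86 and 0.66. Among the aged livers 7 genes (all but Mat1a and Shmt1) were highest in replicate 1, from 0.06 for Ahcy to 0.76 for Nnmt above the age mean on the log2 scale, and these 7 were lowest in replicate 3.

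**Figure D4:**
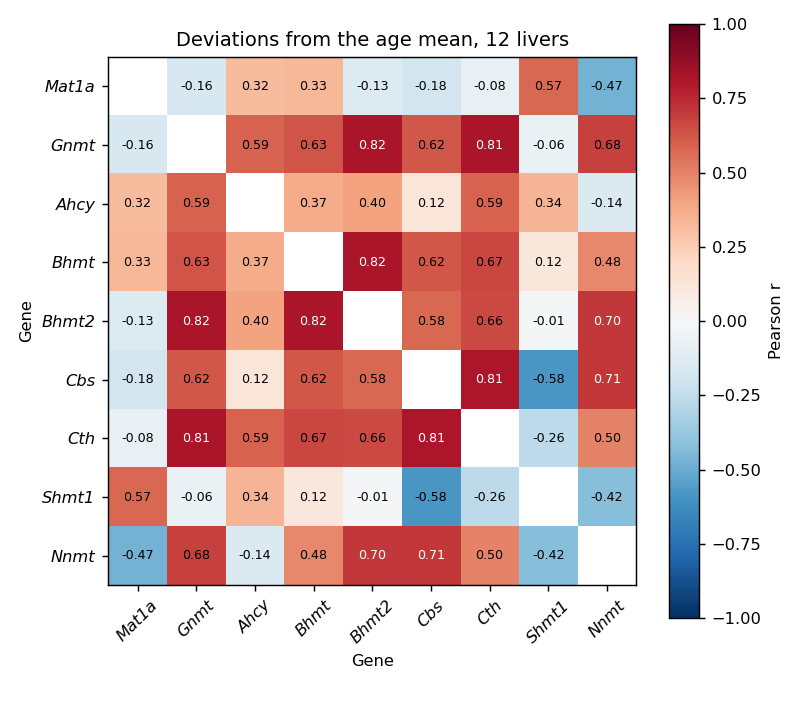
Pearson r between the deviations from the age mean of log2(normalised count + 1) for each pair of the 9 genes over the 12 livers, from blue at -1 to red at 1. Gnmt, Bhmt, Bhmt2, Cbs, Cth and Nnmt have positive values with each other, and Mat1a and Shmt1 (r = 0.57 with each other) stand outside them. No pair among these genes passed the adjustment (permutation within ages, adjusted p from 0.107 to 0.413). Without the 2 livers farthest from the median their r ranged from -0.33 to 0.70. The pair that passed was Gnmt and Ahcy (r = 0.59).

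The rest of the pathway was taken from 72 further genes in 6 lists, described here for the comparisons with young liver. Between aged and young liver 2 of 71 were called, a share below the 3.58% of all genes tested. Sqor, which oxidises hydrogen sulfide in mitochondria, rose from 1536 ± 114.3 to 1846 ± 104.2 normalised counts (SD, n = 4; log2 fold change 0.27, DESeq2 adjusted p = 0.012). Ethe1, the persulfide dioxygenase of the same route, fell from 973.5 ± 28.1 to 726.3 ± 123.8 (log2 fold change -0.42, DESeq2 adjusted p = 0.0199). Between middle-aged and young liver 4 of 68 were called, a share just below the 6.41% of all genes tested: Sqor (0.26), Gclm (0.22), the modifier subunit of the enzyme that starts glutathione synthesis, and Adi1 (0.25), of the methionine salvage pathway, were higher, and Odc1 (-0.40), which starts polyamine synthesis, was lower. Their DESeq2 adjusted p-values were 0.0132, 0.00668, 0.0275 and 0.0181. None of these calls was made by edgeR on filtered genes, where the adjusted p-values ranged from 0.0718 (Odc1) to 0.127 (Adi1).

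Counted by list, 2 of the 11 genes of cysteine, taurine and glutathione metabolism were called between aged and young liver, beside 3.58% of all genes tested. Between middle-aged and young liver 2 of these 11 were called, beside 6.41% of all genes tested. Of the 10 genes of polyamine synthesis and methionine salvage, 2 were called between middle-aged and young liver, beside the same 6.41%. These are the calls named above, none of which edgeR on filtered genes made. None of the tested genes of the folate cycle and glycine cleavage, of choline, betaine and sarcosine oxidation or of serine and glycine supply was called by DESeq2 in any comparison. Depending on the comparison, 18 to 21 of the 22 folate genes, all 6 choline genes and 5 to 7 of the 7 serine genes were tested. Per list and comparison 0 to 2 of them had an unadjusted p under 0.05, and edgeR on filtered genes called none. The median log2 fold change over all tested genes of the 6 lists together was -0.01 at 18 against 3 months, 0.01 at 12 against 3 months and -0.06 at 18 against 12 months.

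Several genes that share substrates with the 9 were not called in any comparison. Mat2a had 386.4 ± 19.6, 406.3 ± 45.2 and 396.0 ± 19.8 normalised counts in young, middle-aged and aged livers (SD, n = 4), and per kb of exon its mean over the livers was 88.3. Mat2b, its regulatory subunit, was higher in all 4 middle-aged livers (363.4 to 372.6) than in the young (271.3 to 342.9) and aged (277.9 to 320) ones, with log2 fold changes of 0.23 (DESeq2 adjusted p = 0.138) and -0.28 (DESeq2 adjusted p = 0.147 for aged against middle-aged). Mtr, the methionine synthase that works with methyl-folate, was low throughout, at 9.57 per kb against 5975 for Bhmt. Pemt, which makes phosphatidylcholine by methylation, had means of 3013, 2758 and 2739 normalised counts from young to aged. Gamt, the methyltransferase of creatine synthesis, had 1674, 1873 and 1629. Cdo1, which oxidises cysteine, had 14772, 14606 and 17992.

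The genes whose levels were most like those of each member over the 12 livers were listed as a description, by Pearson r of log2(normalised count + 1) among 8888 genes with a mean of at least 50. Libraries and their depth are shared by all these points. Nadk was among the closest to Mat1a (r = 0.94), and Gnmt was closest to Dbp (0.93), Selenbp1 (0.92) and Bivm (0.91). Ahcy was closest to Slc15a5 (0.89), Inmt (0.88) and Abhd14b (0.83). Bhmt was closest to Letm1 (0.93), Ces3a (0.90) and Phyh (0.89), and Bhmt2 to Ecsit (0.97), Gmppa (0.96) and Isoc2b (0.95). For Cbs the closest were Csk (0.90), Spout1 (0.89) and Mepce (0.88). Cth was closest to Foxo3 (0.91), Gnmt (0.91) and Tmem86b (0.90), the one case in which 2 of the 9 genes were paired in this way. Shmt1 was closest to Fgfrl1 (0.95), Fasn (0.92) and Utp14b (0.91), and Nnmt to Cebpb (0.97), Fam25c (0.95) and Tmem147 (0.95).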

How the data were processed

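The authors deposited raw counts per gene for 12 livers, 4 at each of 3 ages, and counts of 92 spike-ins, which entered no gene test. The submitters' processing notes name STAR 2.5.2b, SAMtools 1.9, featureCounts, R 3.6.3, edgeR 3.28.1 and DESeq2 1.26.0 and the builds mm10 and GRCm38, without giving their roles. The methods describe library preparation for young and old livers alone (a directional kit, single-end reads) and take RNA-seq at 3 ages from a public atlas; the preparation of these 12 libraries is therefore uncertain. The series' design text gives 3 animals per age, the labels 4. Nothing beyond the statement that a sample is 1 animal describes the replicates.

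Ensembl identifiers were matched to GENCODE M21 (53360 of 53465). The 28449 genes with a count were fitted with DESeq2 1.42.0 in R 4.3.3, since the methods name DESeq2 and a 5% threshold for RNA-seq. The rest of the design was chosen here: all 12 livers, a design of age alone, size factors by the median of ratios, Wald and likelihood ratio tests, adjusted p under 0.05, independent filtering at 0.1. Normalised counts are counts divided by size factors. Ratios and covariation were tested by exact permutation. Intervals cover the spread between livers, and floors counting error only. Scripts were tested on simulated data. The 9 genes and all lists were chosen with earlier results of these data known.

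Of the other pathway genes, those called in any pairwise comparison were named (up to 8 higher and 8 lower), with Mat2a, Mat2b, Mtr, Pemt, Gamt and Cdo1 whatever their values, and for likeness the 3 genes of highest r; some genes that these rules name are not reported here. Alternatives were edgeR 4.0.16, TMM factors, scaling to total nuclear counts, a minimum of 10 counts in 4 livers, no independent filtering, a replicate block, spike-in set as a factor or fitted apart, only the 2 ages compared, and each liver left out. The filtered edgeR fit and the interaction of age with spike-in set were added after the data were seen. Every pair of replicates differed by more than sampling noise (chi-square per gene at least 11.2).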

Additional observations from a re-analysis of the deposited data

Results flagged for a closer look

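In 2 cases a liver stood apart from the other 3 of its age by Dixon's criterion, out of 33 groups of 4 livers examined; chance alone flags about 1 in 20 groups, or 1.65 of 33. Mat1a in aged replicate 1 had 23654 normalised counts, while the other aged livers were between 26500 and 26958. Ahcy in young replicate 2 had 11280 normalised counts, while the other young livers were between 13022 and 13215. Young replicate 2 was also the liver with the highest share of mitochondrial counts (19.2%), and whether this bears on Ahcy was not tested.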

How the results depend on the processing

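The rise of Mat1a from 3 to 12 months was called under 22 of 23 alternatives, all but the fit of replicates 3 and 4, and its direction never changed. Nnmt (aged against young) was called under 11 of 23 and Gnmt (aged against middle-aged) under 5 of 23, both with 1 direction throughout. Across the 3 ages Gnmt was called under 7 of 22. There unfiltered edgeR and the replicate block each called Mat1a and Nnmt, not Gnmt. Between aged and young liver the number of the 9 genes called was 1; it was 0 with filtered edgeR, without independent filtering, with the 2 ages alone and in replicates 1 and 2, 3 in replicates 3 and 4, and 0 to 4 with a liver left out. Between middle-aged and young liver it was 1, against 2 with unfiltered edgeR and total nuclear counts, 3 with the 2 ages alone and 1 to 2 with a liver left out. Between aged and middle-aged liver it was 1, against 0 with either edgeR fit, the count minimum, no independent filtering, the 2 ages alone or replicates 1 and 2, 2 with total nuclear counts, 3 in replicates 3 and 4, and 0 to 2 with a liver left out. Across the 3 ages it was 2, against 0 with filtered edgeR, 1 without independent filtering or in replicates 1 and 2, 4 in replicates 3 and 4, and 1 to 6 with a liver left out; the 6, and the 4 for aged against young, came without aged replicate 1.

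Same-numbered livers correlated at -0.303 to 0.159 in their deviations. This gave no sign that the numbers pair the animals, but it cannot exclude a pairing, and the numbers do follow the spike-in sets. With the replicate block the 9 genes gave 1, 1 and 0 calls at 18 against 3, 12 against 3 and 18 against 12 months, Gnmt being the call lost, and the other pathway genes 1, 1 and 1. The other pathway genes (2, 4 and 1 calls) otherwise gave 0, 0 and 0 with filtered edgeR, 3 for aged against middle-aged with unfiltered edgeR, 5 for aged against young with total nuclear counts, 0, 7 and 2 with the 2 ages alone, 0 (18 against 3 months) and 1 (12 against 3) in replicates 1 and 2, 1 (12 against 3) and 2 (18 against 12) in replicates 3 and 4, and 0 to 6, 0 to 5 and 1 to 2 with a liver left out. Unfiltered edgeR called 880 genes between aged and young liver against 170 after filtering; its moderated variance for Nnmt was 0.613 against 2.77, and the cause was not tested.

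Of 621 fold changes of the 9 genes under alternatives, 553 kept their direction and side of the threshold and 19 changed sign, none of them called. In replicates 1 and 2 these were Gnmt (0.038), Cth (0.10) and Shmt1 (-0.019) for aged against young and Bhmt (0.028) for aged against middle-aged. In replicates 3 and 4 they were Ahcy (-0.086) for middle-aged against young, Cbs (-0.10) for aged against young, and Bhmt2 (-0.007), Cbs (-0.15) and Shmt1 (0.16) for aged against middle-aged. With a liver left out, Ahcy ranged from -0.044 to 0.03 for middle-aged against young, and for aged against middle-aged Bhmt ranged from -0.10 to 0.082, Bhmt2 from -0.055 to 0.076 and Cbs from -0.007 to 0.176. The log2 ratio of Gnmt over Nnmt, aged against middle-aged, was 0.09, against -0.19 in replicates 1 and 2 and -0.014 to 0.265 with a liver left out; the log2 ratio of Bhmt over Bhmt2, aged against middle-aged, was -0.03, against -0.075 to 0.031 with a liver left out. Spearman rho had the opposite sign to r for Mat1a with Gnmt (0.07), Ahcy (-0.035) and Cth (0.056), and for Shmt1 with Gnmt (0.21) and Bhmt2 (0.063).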
